A study of Glycine max with 6 samples.

Results

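The genes described here encode the enzymes and carriers through which a soybean leaf takes up inorganic nitrogen and turns it into amino acids, amides and ureides. They were taken from the annotated table of the whole series, which lists 36827 genes, as those whose protein description names nitrate reductase, nitrite reductase, glutamine synthetase, glutamate synthase, asparagine synthetase, glutamate dehydrogenase, an ammonium transporter, L-asparaginase, allantoinase, a ureide permease, uricase or urease. That gave 71 genes in 12 families. The rule reads text alone and uses no measured value, but it was set with earlier results of these data known. It also caught 5 folylpolyglutamate synthases, enzymes of folate metabolism whose name contains the letters of glutamate synthase, so 66 of the 71 belong to nitrogen metabolism by name.

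Nitrate is reduced to nitrite in the cytosol by nitrate reductase, and nitrite is reduced to ammonium in the plastid by nitrite reductase. Glutamine synthetase fixes the ammonium on glutamate, and glutamate synthase then returns the amide nitrogen to 2-oxoglutarate, so that the pair works as a cycle. Asparagine synthetase moves amide nitrogen onto aspartate for storage and transport, while soybean is also known for the ureides allantoin and allantoate, which carry nitrogen from nodules to the shoot and are broken down there.

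RNA was measured in trifoliolate leaves at germination day 30 in 6 libraries, 3 labelled GmRAV1-ox with the genotype GmRAV1 and 3 labelled DN50 with the genotype wild type. The suffix ox is read here as overexpression, and DN50 is the soybean line that serves as the control. The labels name no transgene promoter, no transgenic line and no number of plants behind a library, and nothing in them ties the libraries of a group to separate plants, so each p-value reflects only how these libraries scattered, which may be technical. Expected counts summed to between 7208496 and 7684540 per library. Levels are expected counts per 1000000 counts (CPM) and per kb of coding length, after trimmed-mean (TMM) scaling, which lets different genes be set beside each other.

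Before the results, 4 facts about the libraries matter. Of 4 genes annotated as RAV family members, 3 were tested and none passed in either direction (log2 fold changes -0.26, -0.05 and -0.04; adjusted p in edgeR's quasi-likelihood test 0.673, 0.928 and 0.961), so the libraries are called by their labels. The fourth, Glyma20g32730.1, removed by the filter on low counts and named after its values were seen, had levels of 1.5, 2.67 and 0.281 in the libraries labelled GmRAV1-ox and 0.15, 0.553 and 0.385 in those labelled DN50, and edgeR called it higher when replicate 3 labelled GmRAV1-ox was left out (log2 fold change 2.44; adjusted p = 0.0273). On the first principal component, which held 62.6% of the variance, the library labelled GmRAV1-ox replicate 3 lay at 16.6, between those labelled DN50 at 64.0, 10.3 and 81.0, whereas replicates 1 and 2 labelled GmRAV1-ox lay at -71.6 and -100.1. All 30 leaf marker genes were tested and none passed in edgeR (0 higher and 5 lower at an unadjusted p below 0.05, 5 called lower without replicate 3 labelled GmRAV1-ox, 2 called by DESeq2), with summed levels of 81594 to 136950 in the libraries labelled GmRAV1-ox and 94583 to 154341 in those labelled DN50 (median log2 fold change -0.60). The nodule list matched 22 genes, which are nodulins and leghemoglobin reductases without leghemoglobin itself, with summed levels of 1176 to 2032 in the libraries labelled GmRAV1-ox and 1345 to 2377 in those labelled DN50; what either list contributes to the values below was not tested. Beside the leaf marker counts, 10.6% of all tested genes were higher and 10.7% lower at an unadjusted p below 0.05 in edgeR. Without replicate 3 labelled GmRAV1-ox, 9.66% of all tested genes were called lower. In whole leaves, fewer cells of a type and less RNA per cell cannot be told apart.

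Of the 71 genes, 53 passed the filter on low counts over 6 libraries, and the other 18 had at most 185 counts over the 6 libraries. The test was edgeR's quasi-likelihood F test adjusted by the Benjamini-Hochberg method across the 26272 genes tested. One gene, a ureide permease, passed an adjusted p of 0.05 and was lower in the libraries labelled GmRAV1-ox, which is 1.89% of the 53 against 0.579% of all tested genes. None passed as higher, against 0.122% of all tested genes; at an unadjusted p below 0.05 the edgeR test gave 5 higher genes, while DESeq2 called 4 and limma called 0 as higher. As lower, DESeq2 called 6 nitrogen genes and limma 0. Over all genes edgeR called 32 higher and 152 lower, and 84 higher and 149 lower without scaling factors. DESeq2 called 760 higher and 1004 lower of 36796 genes. The background at that unadjusted threshold was 10.6% of all tested genes higher and 10.7% lower, beside which 10 of the 53 nitrogen genes (18.9%) were lower. The 3 libraries of each group did not overlap, with those labelled GmRAV1-ox below those labelled DN50, in 12 of the 53 genes (22.6%), against 13.1% of all tested genes. With those labelled GmRAV1-ox above, this held for 5 genes, against 12.9% of all tested genes.

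These genes differed more in size than in one direction. Their median log2 fold change was 0.14, against 0.01 over all tested genes, but the median absolute value was 0.50, against 0.33. At least a 2-fold difference was estimated for 18 of the 53 (34.0%), of which 10 were higher and 8 lower, against 11.6% of all tested genes. The spread within groups was also wider: the median standard deviation of log2 CPM was 0.53 for the nitrogen genes and 0.27 for all tested genes among the libraries labelled GmRAV1-ox, and 0.38 and 0.26 among those labelled DN50.

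**Figure D1:**
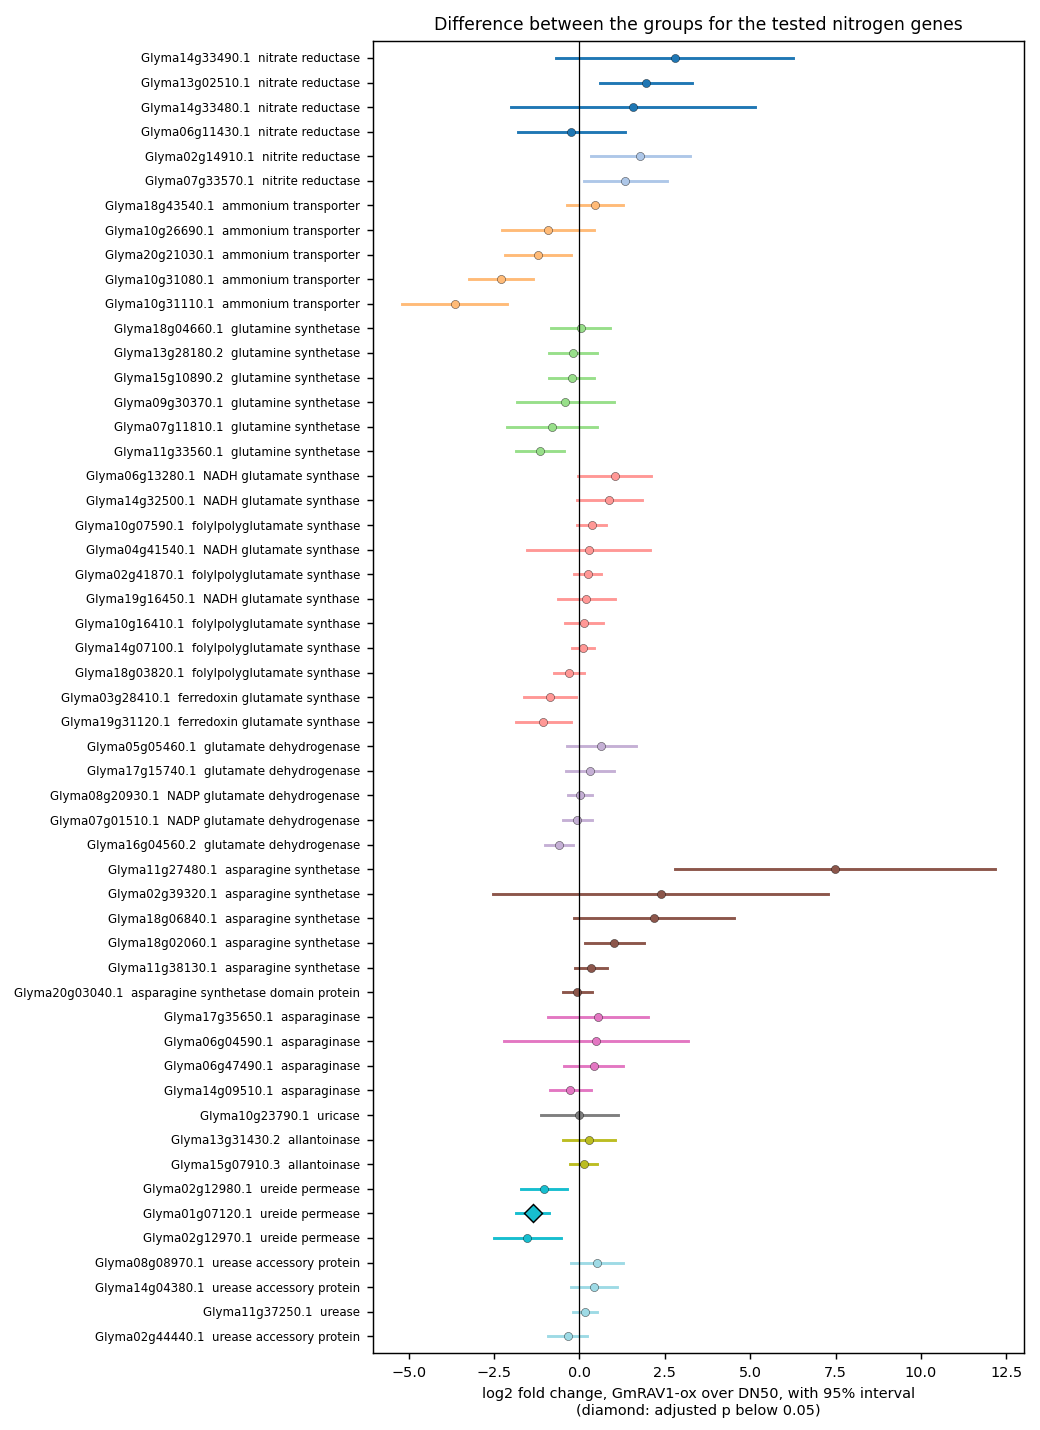
Log2 fold change (x axis, GmRAV1-ox over DN50) with its 95% interval for each of the 53 tested genes, ordered from top to bottom along the pathway and coloured by family. The only diamond, which marks an adjusted p below 0.05, is the ureide permease Glyma01g07120.1 at -1.37, while the intervals of the nitrate reductases and asparagine synthetases include the widest.

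Nitrate reductase, which catalyses the first step, was represented by 4 genes whose summed level was 548, 598 and 1373 in the libraries labelled GmRAV1-ox and 639, 461 and 612 in those labelled DN50. The sums overlapped, but the gene that supplied most of them was not the same in all libraries. Glyma06g11430.1, the most abundant of the 4, had levels of 174, 158 and 805 in the libraries labelled GmRAV1-ox and 530, 270 and 542 in those labelled DN50. Replicate 3 labelled GmRAV1-ox thus stood above all other libraries, and replicates 1 and 2 below all 3 labelled DN50. The log2 fold change was -0.24 (95% interval -1.80 to 1.33; edgeR adjusted p = 0.863), and without replicate 3 labelled GmRAV1-ox it was -1.45 (adjusted p = 0.0206).

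Glyma13g02510.1, annotated as an NADH-dependent nitrate reductase, had levels of 118, 193 and 496 in the libraries labelled GmRAV1-ox and 98.5, 40.7 and 69.4 in those labelled DN50. The groups did not overlap, and the same replicate 3 was again the highest library. Its log2 fold change of 1.95 (95% interval 0.59 to 3.31) did not pass the threshold (edgeR adjusted p = 0.138), nor did the 1.14 without replicate 3 labelled GmRAV1-ox (adjusted p = 0.0665). DESeq2 over 6 libraries called the gene as higher (adjusted p = 0.00529).

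A further pair of nitrate reductase genes carries neighbouring identifiers and was much less even among libraries of one label. Glyma14g33490.1 had levels of 62.2, 74.0 and 29.5 in the libraries labelled GmRAV1-ox and 1.70, 22.4 and 0 in those labelled DN50, without overlap, at a log2 fold change of 2.78 (95% interval -0.69 to 6.26; edgeR adjusted p = 0.315). Glyma14g33480.1, named after its values were seen, had levels of 194, 173 and 42.5 in the libraries labelled GmRAV1-ox and 8.04, 128 and 1.09 in those labelled DN50 (edgeR adjusted p = 0.571). In both genes replicate 2 labelled DN50 lay far above the other 2 libraries of its label, and replicate 3 labelled GmRAV1-ox was the lowest of its own, the opposite of its place in the other nitrate reductases.

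The make-up of the nitrate reductase sum can be given as a description, without a test, since it was picked after the values were seen. Glyma06g11430.1 supplied 31.7%, 26.5% and 58.7% of it in the libraries labelled GmRAV1-ox and 83.0%, 58.6% and 88.5% in those labelled DN50, and these shares overlapped. Its level was 1.47, 0.82 and 1.62 times that of Glyma13g02510.1 in the libraries labelled GmRAV1-ox and 5.38, 6.63 and 7.81 times in those labelled DN50. That ratio did not overlap between the groups, and replicate 3 labelled GmRAV1-ox lay with the other libraries of its label.

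Nitrite reductase, like Glyma13g02510.1, had its highest level in replicate 3 labelled GmRAV1-ox. Glyma07g33570.1, annotated as the ferredoxin-dependent chloroplast enzyme, had levels of 83.7, 124 and 257 in the libraries labelled GmRAV1-ox and 101, 41.4 and 41.0 in those labelled DN50. Glyma02g14910.1 is described as a nitrate reductase precursor, but its KEGG term is ferredoxin-nitrite reductase, and its levels were 107, 145 and 328 in the libraries labelled GmRAV1-ox and 99.8, 42.9 and 25.8 in those labelled DN50. Replicate 3 labelled GmRAV1-ox was the highest and replicate 1 labelled DN50 the highest of its label in both genes, and the groups overlapped in the first gene only. Neither passed: the log2 fold changes were 1.34 (95% interval 0.12 to 2.56; edgeR adjusted p = 0.205) and 1.79 (95% interval 0.35 to 3.22; edgeR adjusted p = 0.172). Without replicate 3 labelled GmRAV1-ox they were 0.75 and 1.15 (edgeR adjusted p = 0.252 and 0.187), and DESeq2 over 6 libraries called the second gene (adjusted p = 0.0198).

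Those 2 genes share reads, as their fractional expected counts add up to whole numbers in every library, and 8 such pairs were found among the 71 genes. Values of a single gene in such a pair depend on how the shared reads were split, so each pair was also tested as a sum, an alternative chosen after the data were seen. Summed, the nitrite reductases had levels of 191, 269 and 585 in the libraries labelled GmRAV1-ox and 201, 84.3 and 66.7 in those labelled DN50 (log2 fold change 1.58, 95% interval 0.27 to 2.88; edgeR adjusted p = 0.178). The highest library labelled DN50 lay just above the lowest labelled GmRAV1-ox.

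The genes that make the cofactors of these enzymes were looked at beside them. Nitrate reductase carries a molybdenum cofactor, and 8 of 9 genes for its synthesis were tested with none past the threshold in either direction (edgeR, 2 higher and 1 lower at an unadjusted p below 0.05; 1 called by DESeq2, and 1 called higher by edgeR without replicate 3 labelled GmRAV1-ox; median log2 fold change -0.06). One of them, the CNX1-like molybdopterin insertion gene Glyma02g44040.1, had levels of 24.5, 28.9 and 24.7 in the libraries labelled GmRAV1-ox and 13.9, 15.5 and 11.4 in those labelled DN50 (log2 fold change 0.93, 95% interval 0.53 to 1.33; edgeR adjusted p = 0.0617). The molybdopterin synthase gene Glyma20g08520.1, the most abundant of the list, had 20.3, 23.1 and 25.7 in the libraries labelled GmRAV1-ox and 24.1, 25.8 and 23.9 in those labelled DN50. CNX1-like levels were therefore well apart and even within groups, while those of the synthase overlapped. Beside the counts for this list, 10.6% of all tested genes were higher and 10.7% lower at an unadjusted p below 0.05 in edgeR. Without replicate 3 labelled GmRAV1-ox, 8.62% were called higher.

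Nitrite reductase carries siroheme, which is made through uroporphyrinogen-III C-methyltransferase. Glyma08g16030.1, one of its 2 genes, had levels of 12, 19.9 and 72.3 in the libraries labelled GmRAV1-ox and 23.3, 10.2 and 12.2 in those labelled DN50 (edgeR adjusted p = 0.374). Glyma15g42510.1 had 5.30, 7.16 and 13.4 in the libraries labelled GmRAV1-ox and 4.77, 4.55 and 4.36 in those labelled DN50 (edgeR adjusted p = 0.20). In both genes replicate 3 labelled GmRAV1-ox was the highest library, as it was for nitrite reductase.

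**Figure D2:**
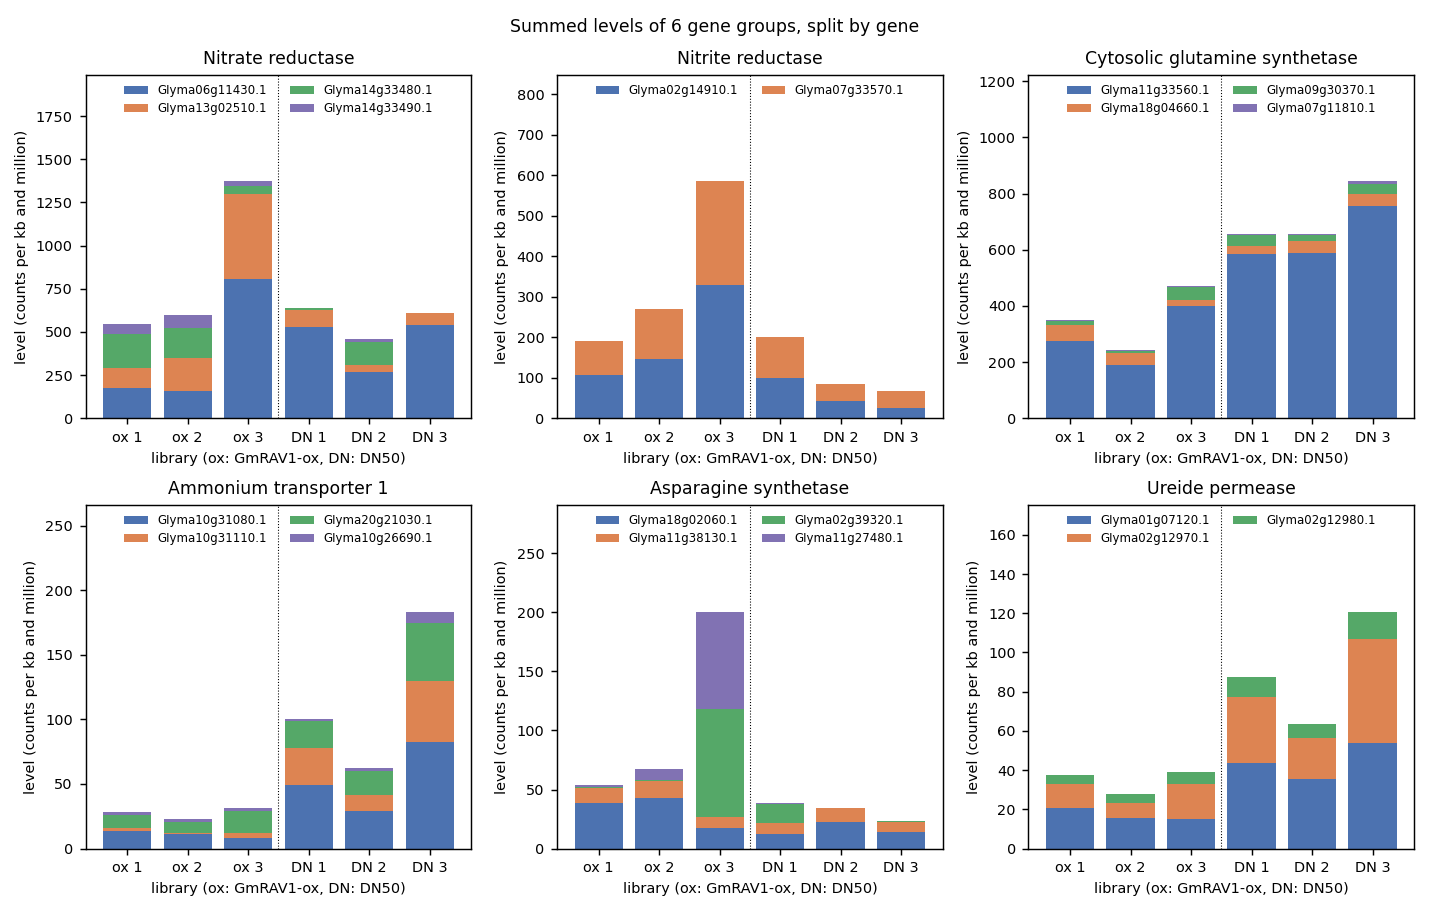
Levels (y axis, CPM per kb of coding length) stacked by gene in each of the 6 libraries, for 6 gene groups, with the libraries labelled GmRAV1-ox (ox) left of those labelled DN50 (DN). Glyma06g11430.1 makes up 58.6% or more of the nitrate reductase bar in each DN50 library, and 58.7% in GmRAV1-ox replicate 3. The bars of ammonium transporter 1, cytosolic glutamine synthetase and ureide permease are lower in all 3 libraries labelled GmRAV1-ox.

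Ammonium transporters, membrane proteins that move ammonium into cells, numbered 11, of which 5 were tested. The summed level of the type 1 genes was lower in the libraries labelled GmRAV1-ox. It was 27.9 ± 4.38 there and 116 ± 61.9 in the libraries labelled DN50 (SD, n = 3 each). Of the 4 type 1 genes tested, Glyma10g26690.1, named after its values were seen, had groups that overlapped. Its log2 fold change was -0.91 (95% interval -2.26 to 0.43, edgeR adjusted p = 0.394). With 1 library left out that estimate ran from -1.25 to 0.13. Glyma10g31080.1 had levels of 13.5, 10.9 and 7.80 in the libraries labelled GmRAV1-ox and 49.2, 28.8 and 82.2 in those labelled DN50. Glyma10g31110.1, annotated like it as ammonium transporter 1 member 2, had 2.03, 1.02 and 4.09 in the libraries labelled GmRAV1-ox and 28.8, 12.7 and 47.6 in those labelled DN50. Both genes had no overlap between the groups, and replicate 3 was the highest library labelled DN50. In edgeR they came just short of the threshold one by one. The log2 fold changes were -2.31 (95% interval -3.25 to -1.37, edgeR adjusted p = 0.0602) and -3.66 (95% interval -5.19 to -2.13, edgeR adjusted p = 0.0678). DESeq2 over 6 libraries called both genes as lower, with an adjusted p of 1.94e-06 for Glyma10g31080.1.

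These 2 transporter genes share reads, and their sum, fitted only over all 6 libraries with none left out, passed close to the threshold. It was 15.6, 11.9 and 11.9 in the libraries labelled GmRAV1-ox and 78.0, 41.4 and 130 in those labelled DN50, or 6.33-fold lower (log2 fold change -2.66, 95% interval -3.61 to -1.72; edgeR adjusted p = 0.0449). Glyma10g31080.1 had 6.67, 10.6 and 1.91 times the level of its partner in the libraries labelled GmRAV1-ox. In those labelled DN50 it had 1.71, 2.27 and 1.73 times that level. This ratio overlapped, as that of replicate 3 labelled GmRAV1-ox lay within the range of DN50. The ratio also depends on how the shared reads were split. The partner had 24, 13 and 43 counts in the libraries labelled GmRAV1-ox.

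Glyma20g21030.1, annotated as ammonium transporter 1 member 1, had levels of 10.5, 8.59 and 17.3 in the libraries labelled GmRAV1-ox and 20.4, 18.6 and 44.9 in those labelled DN50, without overlap (log2 fold change -1.21, 95% interval -2.17 to -0.24; edgeR adjusted p = 0.17). The type 2 gene Glyma18g43540.1, named after its values were seen, had 13.5, 6.79 and 12.8 in the libraries labelled GmRAV1-ox and 6.64, 5.74 and 11.6 in those labelled DN50 (log2 fold change 0.46, 95% interval -0.35 to 1.27; edgeR adjusted p = 0.472). Its groups overlapped, and the difference between the 2 types was not tested.

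Nitrate transporters, matched by name and not counted among the 71 genes, gave calls in the same direction. Of 63 matched genes 40 were tested, 4 passed as lower and 0 as higher, against 0.579% of all tested genes lower and 0.122% higher (edgeR; at an unadjusted p below 0.05, 19 lower and 0 higher). The median log2 fold change was -0.85 against 0.01 for all tested genes. Calls numbered 0 when replicate 1 or 2 labelled GmRAV1-ox or replicate 1 or 3 labelled DN50 was left out, 2 without replicate 2 labelled DN50, and 19 lower and 3 higher without replicate 3 labelled GmRAV1-ox. DESeq2 gave 13 calls, and limma 3, or 0 without a filter. Over all tested genes, edgeR had 10.7% lower and 10.6% higher at an unadjusted p below 0.05. Without replicate 3 labelled GmRAV1-ox it called 9.66% lower and 8.62% higher. DESeq2 called 1004 lower and 760 higher of 36796 genes. The list covers the whole peptide and nitrate transporter family by annotation, so some of its genes may carry other substrates. Glyma18g02510.1 had levels of 10.4, 7.55 and 4.81 in the libraries labelled GmRAV1-ox and 21.4, 23.0 and 22.1 in those labelled DN50 (2.91-fold lower; edgeR adjusted p = 0.0487). Glyma05g01380.1, annotated like the low-affinity nitrate transporter 1.2, had 1.67, 1.62 and 2.12 in the libraries labelled GmRAV1-ox and 17.7, 8.12 and 6.71 in those labelled DN50 (edgeR adjusted p = 0.0450). Both were separate between the groups in all libraries, and so were the remaining 2. Glyma11g35890.1 had 0.582, 0.339 and 0.491 in the libraries labelled GmRAV1-ox and 3.67, 4.11 and 6.36 in those labelled DN50 (edgeR adjusted p = 0.0320). Glyma08g39140.1, annotated like the high-affinity transporter 2.5, was near 0 in the libraries labelled GmRAV1-ox at 0.168, 0 and 0.0945 and had 1.92, 2.89 and 5.18 in those labelled DN50 (edgeR adjusted p = 0.0363).

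NIN-like proteins, transcription factors that in Arabidopsis act in the response to nitrate, had no call among 9 tested of 12 matched genes (edgeR; 0 higher and 3 lower at an unadjusted p below 0.05; 3 called lower without replicate 3 labelled GmRAV1-ox; 1 called by DESeq2; median log2 fold change -0.71). Of all tested genes, 10.6% were higher and 10.7% lower at that unadjusted threshold. Without replicate 3 labelled GmRAV1-ox, 9.66% were called lower. The NLP7-like gene Glyma16g30180.1 had levels of 8.52, 6.70 and 17.9 in the libraries labelled GmRAV1-ox and 20.6, 15.2 and 22.8 in those labelled DN50 (edgeR adjusted p = 0.246). NLP6-like Glyma10g37860.1 had 13.6, 13.9 and 14.7 in the libraries labelled GmRAV1-ox and 12.7, 12.9 and 15.8 in those labelled DN50 (edgeR adjusted p = 0.933). Neither gene separated the groups.

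Glutamine synthetase had by far the highest levels of these enzymes, through its plastid form. The 2 genes for it, Glyma13g28180.2 and Glyma15g10890.2, summed to 3293, 2648 and 3870 in the libraries labelled GmRAV1-ox and 4711, 3731 and 2909 in those labelled DN50, which overlapped. Their log2 fold changes were -0.19 (95% interval -0.88 to 0.50; edgeR adjusted p = 0.743) and -0.23 (95% interval -0.89 to 0.42; edgeR adjusted p = 0.667). The interval of the second reached to 1.85-fold lower.

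The cytosolic form summed to 351, 244 and 473 in the libraries labelled GmRAV1-ox and 658, 657 and 844 in those labelled DN50, with no overlap. Most of this came from the GSbeta1 gene Glyma11g33560.1, at 276, 188 and 401 in the libraries labelled GmRAV1-ox and 585, 589 and 757 in those labelled DN50. Its log2 fold change of -1.16 (95% interval -1.87 to -0.45) did not pass over all 6 libraries (edgeR adjusted p = 0.112) and passed without replicate 3 labelled GmRAV1-ox (log2 fold change -1.49; adjusted p = 0.00849). DESeq2 over 6 libraries called the GSbeta1 gene as lower (adjusted p = 0.00524). The next 2 cytosolic genes, named after their values were seen, did not share its separation. The beta2 gene Glyma18g04660.1 had 54.2, 43.0 and 18.5 in the libraries labelled GmRAV1-ox and 29.6, 42.8 and 40.9 in those labelled DN50. The alpha gene Glyma09g30370.1 had 15.1, 9.05 and 46.9 in the libraries labelled GmRAV1-ox and 37.4, 21.1 and 35.7 in those labelled DN50. Replicate 3 labelled GmRAV1-ox was the lowest library for beta2 and the highest for alpha.

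Glutamate synthase occurs in leaves mainly as a ferredoxin-dependent plastid enzyme and beside it as an NADH-dependent one, and the estimates for the 2 forms had opposite signs. The ferredoxin-dependent genes Glyma03g28410.1 and Glyma19g31120.1 had levels of 163, 118 and 237 and of 116, 79.2 and 167 in the libraries labelled GmRAV1-ox, and of 403, 241 and 298 and of 331, 184 and 240 in those labelled DN50. Both were separate between the groups, and replicate 3 came closest to the libraries labelled DN50. Since they share reads they were also summed, to 280, 197 and 403 in the libraries labelled GmRAV1-ox and 734, 425 and 538 in those labelled DN50 (log2 fold change -0.95, 95% interval -1.75 to -0.14; edgeR adjusted p = 0.182). One by one the log2 fold changes were -0.86 and -1.06 (edgeR adjusted p = 0.196 and 0.153). Without replicate 3 labelled GmRAV1-ox they passed in edgeR at -1.18 and -1.38 (adjusted p = 0.0311 and 0.0212). DESeq2 over 6 libraries called Glyma19g31120.1 as lower (adjusted p = 0.0305) but not Glyma03g28410.1 (adjusted p = 0.0733).

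All 4 tested NADH-dependent genes had positive estimates, from 0.20 to 1.03, and none passed. Without replicate 3 labelled GmRAV1-ox the estimate for one of them, Glyma04g41540.1, was -0.45. The 2 abundant ones share reads and were named after their values were seen. Glyma06g13280.1 had levels of 28.0, 35.9 and 68.4 in the libraries labelled GmRAV1-ox and 32.2, 21.5 and 11.2 in those labelled DN50 (edgeR adjusted p = 0.248). Glyma04g41540.1 had 24.4, 20.4 and 64.7 in the libraries labelled GmRAV1-ox and 53.0, 31.1 and 6.76 in those labelled DN50 (edgeR adjusted p = 0.863). The groups overlapped in both, with replicate 3 the highest library under the label GmRAV1-ox and the lowest under the label DN50. The 5 folylpolyglutamate synthases had log2 fold changes of -0.31 to 0.36, and none passed.

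Glutamate dehydrogenase, which can release or fix ammonium at glutamate, was low beside glutamine synthetase. Glyma16g04560.2, annotated as glutamate dehydrogenase 1, had levels of 25.5, 18.9 and 25.6 in the libraries labelled GmRAV1-ox and 38.6, 32.2 and 36.0 in those labelled DN50. Its groups were narrow and did not overlap, and the log2 fold change of -0.61 (95% interval -1.02 to -0.20; edgeR adjusted p = 0.127) did not pass, but it did where replicate 3 labelled GmRAV1-ox was left out (-0.70; adjusted p = 0.0377). The NADP-specific gene Glyma07g01510.1 had 10.2, 9.87 and 8.90 in the libraries labelled GmRAV1-ox and 11.7, 8.03 and 10.7 in those labelled DN50 (log2 fold change -0.07, 95% interval -0.50 to 0.35; edgeR adjusted p = 0.85).

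Asparagine synthetase, which makes the amide asparagine, showed a wide spread between libraries. The type III gene Glyma18g02060.1 had levels of 38.4, 42.5 and 17.3 in the libraries labelled GmRAV1-ox and 12.5, 22.3 and 13.7 in those labelled DN50 (log2 fold change 1.02, 95% interval 0.15 to 1.88; edgeR adjusted p = 0.183). Here replicate 3 labelled GmRAV1-ox lay within the range of DN50, and without it the log2 fold change was 1.30 (adjusted p = 0.00931). Glyma11g27480.1 behaved otherwise, with 22, 137 and 998 counts in the libraries labelled GmRAV1-ox and 5, 1 and 0 in those labelled DN50, which are levels of 1.62, 9.42 and 82.8 and of 0.442, 0.0818 and 0. The groups did not overlap, but the fitted log2 fold change of 7.48 (95% interval 2.80 to 12.16; edgeR adjusted p = 0.123) rests on 6 counts under the label DN50 and, for the most part, on 1 library under the label GmRAV1-ox. Without that library it was 4.97 (edgeR adjusted p = 0.0259). DESeq2 over 6 libraries called Glyma11g27480.1 as higher.

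Glyma02g39320.1, annotated like the root asparagine synthetase, was present in 2 of the 6 libraries above a level of 2, one under each label. It had levels of 0.660, 0.547 and 91.0 in the libraries labelled GmRAV1-ox and 16.3, 0.407 and 1.13 in those labelled DN50. The log2 fold change was 2.38 (95% interval -2.53 to 7.29; edgeR adjusted p = 0.531) with replicate 3 labelled GmRAV1-ox and -3.28 (adjusted p = 0.342) without it, so a single library set its sign. All asparagine synthetases together, without the protein that only carries the domain, summed to 55.3, 68.8 and 205 in the libraries labelled GmRAV1-ox and 40.9, 35.3 and 24.9 in those labelled DN50.

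**Figure D3:**
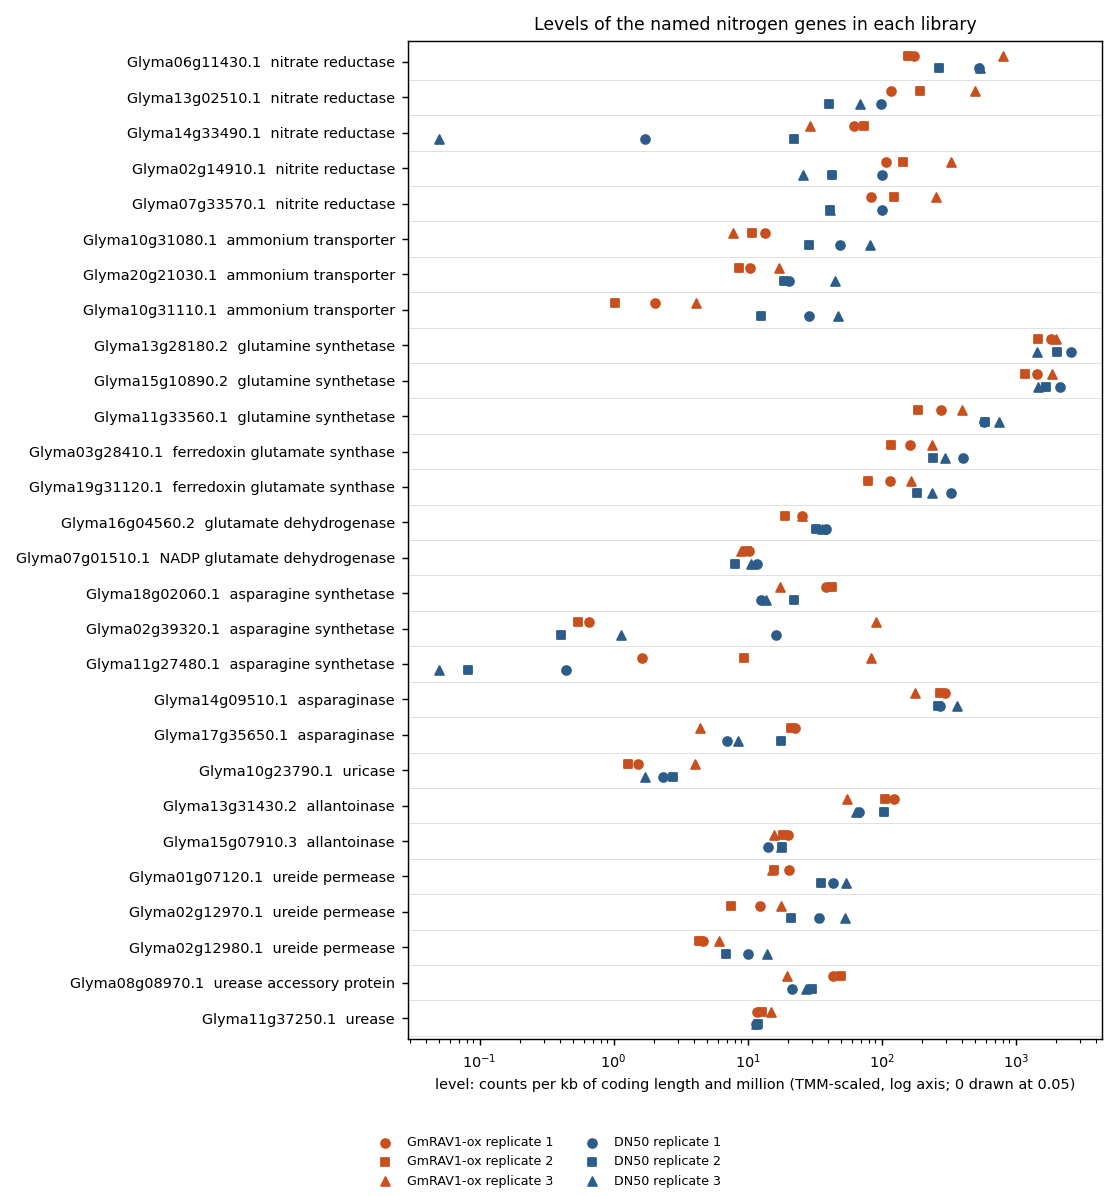
Level of each of the 28 genes chosen by the naming rule (x axis, log scale, CPM per kb of coding length, with 0 drawn at 0.05), with 1 point per library and the libraries labelled GmRAV1-ox above those labelled DN50 in each strip. The 3 ureide permeases and 3 ammonium transporters show 2 separate sets of points each, while the points of Glyma02g39320.1 run from 0.407 to 91.0.

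Asparaginase, which frees ammonium from asparagine, had overlapping groups in all 4 of its tested genes. The abundant Glyma14g09510.1 had levels of 297, 274 and 177 in the libraries labelled GmRAV1-ox and 271, 262 and 368 in those labelled DN50 (log2 fold change -0.27, 95% interval -0.87 to 0.33; edgeR adjusted p = 0.580). Its read-sharing partner Glyma17g35650.1 had 22.8, 21.2 and 4.42 in the libraries labelled GmRAV1-ox and 7.06, 17.7 and 8.47 in those labelled DN50 (edgeR adjusted p = 0.642). Replicate 3 labelled GmRAV1-ox was the lowest library for both.

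The ureide branch held the only call in edgeR over all libraries. Ureide permeases carry allantoin and related compounds across membranes, and all 3 of their genes lay lower in the libraries labelled GmRAV1-ox without overlap. Glyma01g07120.1 had levels of 20.5, 15.8 and 15.2 in the libraries labelled GmRAV1-ox and 43.4, 35.4 and 54.0 in those labelled DN50, or 17.2 ± 2.90 and 44.3 ± 9.33 (SD, n = 3 each). It fell by 1.37 on the log2 scale (95% interval -1.85 to -0.88), which is 2.58-fold lower, at an edgeR adjusted p of 0.0423. The call sat close to the threshold: over 17 alternatives the log2 fold change ran from -1.52 to -1.16, and the adjusted p from 2.49e-05 to 0.222, with 8 of the 17 past the threshold. It was lost when replicate 1 or 2 labelled GmRAV1-ox was left out (edgeR adjusted p = 0.17 and 0.149) and when replicate 1 or 3 labelled DN50 was left out (edgeR adjusted p = 0.211 and 0.222).

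The other 2 ureide permeases gave like values, and DESeq2 over 6 libraries called Glyma02g12970.1 as lower but not Glyma02g12980.1. Glyma02g12970.1 had 12.3, 7.46 and 17.8 in the libraries labelled GmRAV1-ox and 34.1, 21.0 and 53.0 in those labelled DN50 (log2 fold change -1.53, 95% interval -2.50 to -0.56; edgeR adjusted p = 0.123). Glyma02g12980.1 had 4.64, 4.33 and 6.08 in the libraries labelled GmRAV1-ox and 10.1, 6.95 and 13.9 in those labelled DN50 (log2 fold change -1.04, 95% interval -1.71 to -0.37; edgeR adjusted p = 0.121). The first of these shares reads with Glyma01g07120.1, and the sum of that pair, at 32.8, 23.3 and 33.0 in the libraries labelled GmRAV1-ox and 77.5, 56.4 and 107 in those labelled DN50, was 2.71-fold lower and did not pass (edgeR adjusted p = 0.0626). In edgeR, summing read-sharing genes thus ended the call of the ureide permease and gave one for the ammonium transporters.

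Uricase and allantoinase overlapped between the groups, while other genes of purine breakdown summed to lower levels under the label GmRAV1-ox. Uricase, which oxidises urate on the way to allantoin, was near the floor with Glyma10g23790.1 at 1.52, 1.29 and 4.04 in the libraries labelled GmRAV1-ox and 2.32, 2.75 and 1.70 in those labelled DN50 (log2 fold change 0, 95% interval -1.12 to 1.12). Allantoinase opens the ring of allantoin, and its main gene Glyma13g31430.2 had levels of 123, 107 and 55.5 in the libraries labelled GmRAV1-ox and 67.6, 104 and 64.1 in those labelled DN50 (edgeR adjusted p = 0.663). Glyma15g07910.3, the second allantoinase gene, had 20.1, 18.5 and 15.7 in the libraries labelled GmRAV1-ox and 14.3, 18 and 17.8 in those labelled DN50 (edgeR adjusted p = 0.718). Levels overlapped in all 3 genes. The 6 matched genes for other steps of purine breakdown summed to 60.5, 55.8 and 79.3 in the libraries labelled GmRAV1-ox and 105, 96.5 and 138 in those labelled DN50, without overlap. Of these, 5 were tested and none passed in edgeR (median log2 fold change -0.73). At an unadjusted p below 0.05, 0 were higher and 3 lower, against 10.6% and 10.7% of all tested genes. DESeq2 called 1 of them. Without replicate 3 labelled GmRAV1-ox, edgeR called 3 lower, against 9.66% of all tested genes.

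Urease, the nickel enzyme that splits urea, was even across libraries, with Glyma11g37250.1 at 11.7, 12.7 and 14.9 in the libraries labelled GmRAV1-ox and 11.5, 11.9 and 11.6 in those labelled DN50 (log2 fold change 0.17, 95% interval -0.18 to 0.52; edgeR adjusted p = 0.548). UreG, an accessory protein that loads nickel into urease, is encoded by Glyma08g08970.1, which had levels of 43.1, 49.3 and 19.5 in the libraries labelled GmRAV1-ox and 21.5, 30.0 and 27.1 in those labelled DN50. Replicates 1 and 2 labelled GmRAV1-ox were above all 3 libraries labelled DN50 and replicate 3 below them (log2 fold change 0.51; edgeR adjusted p = 0.40, and 0.80 with adjusted p = 0.0206 without replicate 3 labelled GmRAV1-ox).

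**Figure D4:**
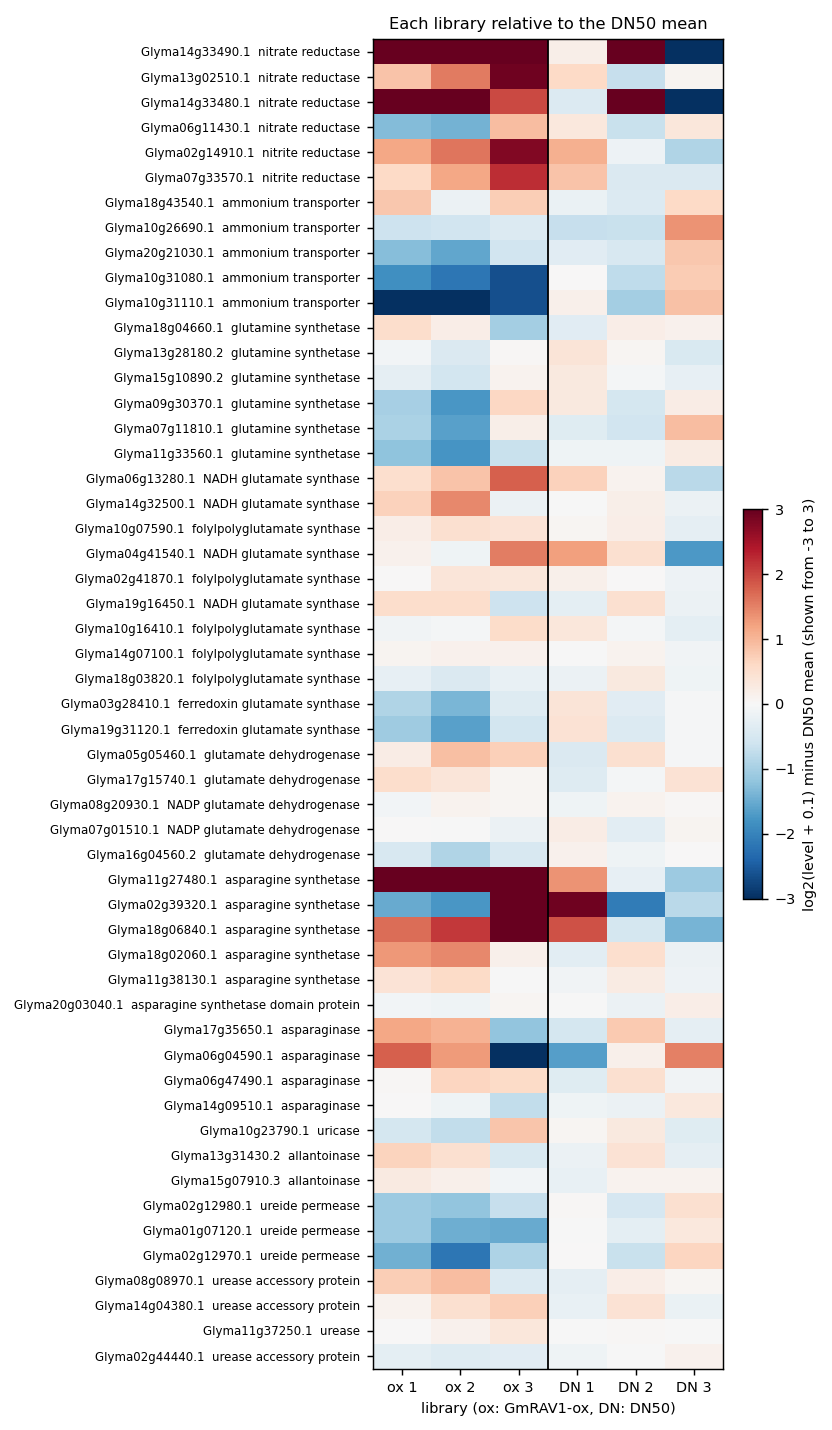
Each tested gene (one line per gene, ordered along the pathway) in each library, as log2(level + 0.1) minus the mean of the libraries labelled DN50, from blue (lower) to red (higher). The library labelled GmRAV1-ox replicate 3 (ox 3) is the highest of the 6 in 14 of the 53 genes, among them nitrite reductase and several asparagine synthetases.

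Replicate 3 labelled GmRAV1-ox was the highest of the 6 libraries in 14 of the 53 nitrogen genes (26.4%), against 15.9% of all tested genes. Replicate 2 labelled DN50 was the highest in 1 of them (1.89%), against 9.76% of all tested genes. With replicate 3 labelled GmRAV1-ox left out, edgeR called 13 of 55 testable nitrogen genes as lower (23.6%), against 9.66% of all tested genes, and 5 as higher, against 8.62%. The 13 were the 3 ureide permeases, 3 ammonium transporters, 2 cytosolic glutamine synthetases, both ferredoxin-dependent glutamate synthases, 1 nitrate reductase, 1 glutamate dehydrogenase and 1 asparagine synthetase. The 5 were 2 asparagine synthetases, 1 NADH-dependent glutamate synthase, 1 allantoinase and the UreG gene. Nitrite reductase and the nitrate reductase Glyma13g02510.1 were in neither set.

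Neighbouring steps of metabolism had no call in edgeR over 6 libraries in either direction. These were the supply of 2-oxoglutarate (23 tested genes, 0 higher and 5 lower at an unadjusted p below 0.05, median log2 fold change -0.31), ferredoxin and its reductase (11, 0 and 1, -0.35), phosphoenolpyruvate carboxylase with aspartate aminotransferase (17, 1 and 1, -0.01), glutamate decarboxylase with proline synthesis (10, 2 and 0, 0.29) and arginine and urea formation (10, 2 and 2, 0.23). Without replicate 3 labelled GmRAV1-ox, edgeR called 5 lower in the first list, 2 lower in the second, 1 higher and 1 lower in the next, 2 higher and 1 lower in that of glutamate decarboxylase, and 2 higher and 1 lower in that of arginine. DESeq2 over 6 libraries called 1, 1, 2, 2 and 1 genes of these lists. Beside these counts, 10.6% of all tested genes were higher and 10.7% lower at the unadjusted threshold. Without replicate 3 labelled GmRAV1-ox, edgeR called 8.62% of all tested genes higher and 9.66% lower. Over 6 libraries it called only 0.122% higher and 0.579% lower, so the lack of a call in lists this small says little. Summed levels of ferredoxin and its reductase, which supply electrons to nitrite reductase and glutamate synthase in the plastid, were 5343 to 9879 in the libraries labelled GmRAV1-ox and 8896 to 12144 in those labelled DN50.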

How the data were processed

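Per the labels' protocols, total RNA was extracted with Trizol and libraries were made with a TruSeq RNA kit. The submitters' processing notes list TopHat and Cufflinks. Versions, genome build and annotation were not given in the sources used here. Per the file headers, each library's deposited table holds a coding length, an expected count (an estimated count per gene) and an FPKM value per gene, and the whole-series table repeats the FPKM values as deposited with protein descriptions (largest difference 0). All lengths are multiples of 3. Between 29.6% and 30.5% of expected counts above 0 were not whole.

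Expected counts were rounded, and genes absent from a library's table were set to 0. In R 4.3.3, edgeR 4.0.16 was used with filterByExpr, TMM factors (0.849 to 1.17), robust quasi-likelihood F tests, 2-sided, and Benjamini-Hochberg adjustment over 26272 genes at 0.05. For the 95% intervals, the log2 fold change was divided by the root of its F value to get a standard error, which was multiplied by a t quantile. Read-sharing pairs are genes whose expected counts were fractional in at least 4 libraries and summed to whole numbers within 0.011 in all 6. Alternatives were DESeq2 1.42.0, limma 3.58.1 on log2(FPKM + 0.5) and log2(FPKM + 0.1), other scaling and filters, a replicate block, each library left out, and summed pairs. The fits were also run on simulated counts with known differences. That simulation set no library apart from its group, so it cannot show how the fits handle such a library in these data.

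Named genes are those past the threshold, those whose groups do not overlap with at least a 2-fold estimate, and the 2 most abundant of each family; of the lists for nitrate transport, nitrate regulators and the cofactors, the genes past the threshold or the 2 most abundant. The genes, lists and rules were chosen with earlier results of these data known. A list pattern for nitrate regulators that also matched unrelated proteins was narrowed after the data were seen (14 tested genes, median log2 fold change -0.60, against 9 and -0.71 as narrowed). Patterns for PII proteins and root markers matched 0 genes. Gene names are those of the files, and sequences were not used here.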

Additional observations from a re-analysis of the deposited data

How the results depend on the processing

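The median log2 fold change of the nitrogen genes stayed between 0.05 and 0.32 over all alternatives, the highest without scaling factors, where the median of all tested genes was itself 0.20. Counts of calls moved more. Against 0 higher and 1 lower nitrogen gene in edgeR over 6 libraries, DESeq2 gave 4 higher and 6 lower, the fit without a count filter 2 lower, the replicate block 7 lower, and no scaling and all 3 limma fits 0 lower (at an unadjusted p below 0.05, 10 lower without scaling and in both filtered limma fits, and 12 in the unfiltered one). Leaving out 1 library gave 0 to 5 higher and 0 to 13 lower nitrogen genes; the 5 and 13 came without GmRAV1-ox replicate 3, and the settings with 0 lower had 8 or 9 at an unadjusted p below 0.05. Over all genes, against 32 higher and 152 lower, DESeq2 gave 760 and 1004, the replicate block 682 and 939, no scaling 84 higher beside 149 lower, no count filter 62 and 231, a filter on mean FPKM 17 higher, limma on log2(FPKM + 0.5) 56 higher, the same without a filter 9 and 11, limma on log2(FPKM + 0.1) 89 lower, and leaving out 1 library 0 to 2383 higher and 0 to 2672 lower. The cause was not tested. Deviations of same-numbered libraries of the 2 labels correlated at -0.301, 0.398 and 0.295. Those of libraries with different numbers correlated at -0.502 to 0.367. So few values cannot settle whether the replicate numbers pair the libraries. The replicate block called 11 nitrate transporters, against 4 without it, and a filter on mean FPKM left 2.

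Of 571 recomputed values of 35 genes, 465 kept direction and side of the threshold, 38 lost the call, 32 gained one and 36, in 9 genes, turned sign with no call on either side. The 35 include the 3 tested RAV family genes, Glyma01g22260.1, Glyma02g11060.1 and Glyma10g34760.1, which are not among the nitrogen genes. Without scaling factors the turned log2 fold changes were 0.0080 for Glyma13g28180.2, 0.13 for Glyma07g01510.1, 0.15 for Glyma10g23790.1, 0.10 for Glyma01g22260.1 and 0.12 for Glyma10g34760.1. For the same 5 genes in that order, limma with 0.1 gave 0.020, 0.13, 0.039, 0.12 and 0.25, and limma with 0.5, with and without a filter, 0.020, 0.12, 0.045, 0.11 and 0.23. The replicate block gave 0.052 for Glyma10g34760.1, and the summed pair -0.23 for Glyma17g35650.1. With 1 library left out the range was -0.40 to 0.010 for Glyma13g28180.2, -1.45 to 0.13 for Glyma06g11430.1, -3.28 to 5.28 for Glyma02g39320.1, -0.23 to 0.031 for Glyma07g01510.1, -0.70 to 0.29 for Glyma10g23790.1, -0.34 to 0.13 for Glyma01g22260.1, -0.59 to 0.070 for Glyma02g11060.1 and -0.26 to 0.45 for Glyma10g34760.1. With 3 libraries a label and one of them apart, an adjusted p above 0.05 does not show that a gene did not differ. Counts split between similar genes limit single-gene values.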

Other observations

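The filter on low counts removed some nitrogen genes from the edgeR test over 6 libraries. Of these, 2 were called by edgeR without GmRAV1-ox replicate 3, and DESeq2 over 6 libraries called the first of the 2 as well. The allantoinase gene Glyma13g31420.2 had levels of 6.59, 7.38 and 0.281 in the libraries labelled GmRAV1-ox and 0.10, 0.555 and 0.0857 in those labelled DN50 (log2 fold change 4.75 and adjusted p = 0.00187 without replicate 3). The asparagine synthetase Glyma14g37440.1 had 0.294, 0.206 and 0.413 in the libraries labelled GmRAV1-ox and 0.970, 0.815 and 1.21 in those labelled DN50, without overlap (log2 fold change -1.99 and adjusted p = 0.0442 without replicate 3). The counts behind Glyma14g37440.1 were 4, 3 and 5 in the libraries labelled GmRAV1-ox and 11, 10 and 16 in those labelled DN50. For Glyma13g31420.2 they were 79, 95 and 3 under GmRAV1-ox and 1, 6 and 1 under DN50. These calls thus rest on few counts in at least one group. Both genes were named after their values were seen.

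The cytosolic glutamine synthetase genes differed in their ratio. Glyma11g33560.1 had 5.10, 4.38 and 21.7 times the level of Glyma18g04660.1 in the libraries labelled GmRAV1-ox and 19.8, 13.8 and 18.5 times in those labelled DN50. Here replicate 3 labelled GmRAV1-ox lay with the libraries labelled DN50, whereas in the ratio of the nitrate reductases Glyma06g11430.1 and Glyma13g02510.1 it lay with its own label. Both ratios were picked after the values were seen and were not tested.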
